A study of Homo sapiens with 6 samples.

Results

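The core glycolysis enzyme genes were followed across SH-SY5Y neuroblastoma cells that carried a dominant-negative form of the telomere protein TRF2 or a control vector. The members are 10 listed genes, GPI, ALDOA, TPI1, GAPDH, PGK1, PGAM1, ENO1, PKM, LDHA and LDHB, and a spot of the array counts as a member where the platform annotation names 1 of them after symbols were updated by gene ID. Of the 10 genes, 8 had a spot, and they held 28 of the 9169 spots tested. ALDOA had 6 spots, TPI1 had 5, GAPDH, ENO1 and PKM had 4 each, PGAM1 and LDHB had 2 each and GPI had 1. PGK1 and LDHA were not analysed here.

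SH-SY5Y is an established human line with features of immature sympathetic neurons, here obtained from ATCC. The 3 GFP control arrays hold RNA of cells with the vector pEGF-C2 and no insert, and the 3 DN-TRF2 arrays hold RNA of cells with the vector pIRES2-EGFP carrying the dominant-negative cDNA. All cells were selected in geneticin at 500 µg/ml, RNA was taken on day 7 after transfection, and per the labels the samples come from 3 independent experiments. Insert and vector backbone differ together, so their effects cannot be told apart, and the share of cells that carried the insert was not measured here. No spot carried the gene of TRF2 itself, so the array does not check the group labels.

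Glycolysis is the cytosolic chain that turns glucose into pyruvate and yields ATP, and lactate dehydrogenase then interconverts pyruvate and lactate. GPI, ALDOA and TPI1 act on the sugar phosphates, GAPDH to PKM carry out the energy-yielding reactions, and LDHA and LDHB encode the subunits of lactate dehydrogenase. Genes of this chain are textbook targets of hypoxia-inducible factor and of MYC, and GAPDH is widely used as a reference gene. Proliferating tumour cells, neuroblastoma included, are known for high glycolytic flux.

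The arrays differed modestly as a whole. Median intensity, in the linear units of the deposited values, ran from 480 to 712, and between 1.51% and 2.48% of spots on an array lay at or under 10, the value that stands in for no signal. None of the 28 glycolysis spots did so on any array (0 on each). The mean correlation of GFP control replicate 2 with the other controls, across spots, was 0.958, the lowest of the 6 arrays. GFP control replicates 1 and 3 lay at 0.967 and 0.971, and DN-TRF2 arrays correlated with each other at 0.989 to 0.991. Values below are log2 of intensity plus an offset of 50 after quantile normalization, compared between arrays within a spot only, since different spots are not on a common scale. The SH-SY5Y identity could not be checked by signal above 10, since nearly all spots of an array pass that mark. Of 14 listed sympathoadrenal genes 8 had spots, and the others were not analysed here. All 16 of these spots, DBH, DDC, CHGA and GATA3 among them, lay above 10 on every array. So did 15 of 16 spots of liver and epithelial genes.

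No core glycolysis gene passed the test between DN-TRF2 and GFP control cells. All 8 measured genes had a lower mean in DN-TRF2, against 52.0% of the 6255 genes tested, but the sizes were small: the gene differences ran from -0.19 to -0.0016 on the log2 scale, with a median of -0.063 against -0.0067 over all genes. The limma adjusted p was 1.00 for each of the 8 genes, and 0 of 28 spots passed, where 0% of all spots were called in either direction (smallest limma adjusted p 0.999). At an unadjusted p under 0.05, 0 of 28 spots were lower and 0 higher, against 1.10% and 2.31% of all spots. In total RNA of a culture, fewer cells and less RNA per cell cannot be told apart.

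The spots themselves were more evenly divided than the gene means. Of the 28 spots, 18 were lower and 10 higher, against 52.7% and 47.3% of all spots, with a median difference of -0.066 against -0.011 over all spots, and a range from -0.40 to 0.16. The difference had the same lower sign at all 3 replicate numbers at 7 of 28 spots, against 14.7% of all spots, and the same higher sign at 1, against 11.0%. The groups did not overlap at 1 spot, which was higher in DN-TRF2, against 4.28% of all spots, and at 0 spots in the lower direction, against 4.43%.

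**Figure D1:**
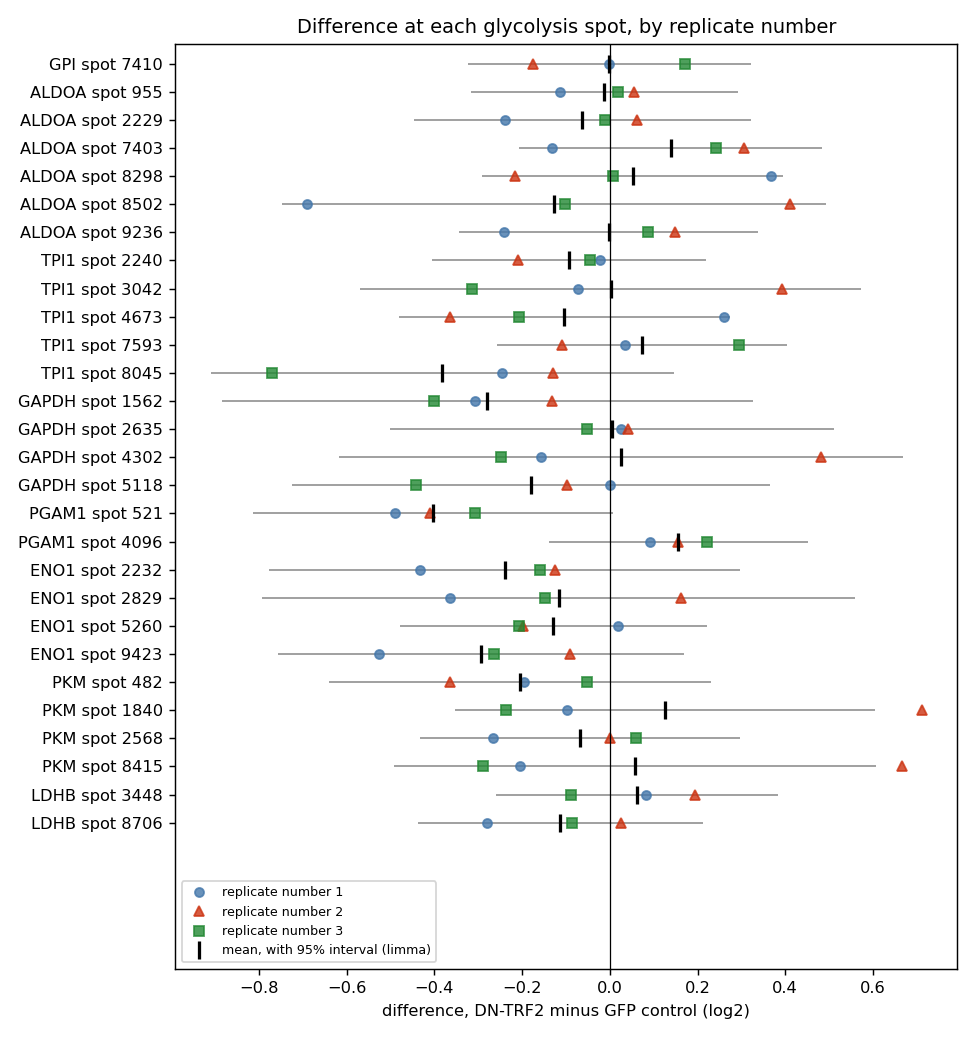
Difference between the DN-TRF2 and GFP control array of the same replicate number at each of the 28 glycolysis spots (coloured points, log2), with the mean (black bar) and limma's 95% interval (grey line). Every interval crosses 0, and PGAM1 holds both the lowest mean, -0.40 at spot 521, and the highest, 0.16 at spot 4096.

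Promoters are shown for the measured members whose RefSeq window ends at the 5′ end of the annotated gene. The hypoxia-inducible factor core motif is marked because it is the element best known in genes of this chain. No link between motifs and the array values was tested. Each run is the 250 bases before the start, on the strand of the gene, from RefSeq (GRCh38.p14). Capitals mark ACGTG or GCGTG, on either strand, so that CACGT and CACGC are their reverse complements. The windows are chr16:30064029-30064278 on the plus strand for ALDOA, chr1:8878687-8878936 on the minus strand for ENO1 and chr12:21657843-21658092 on the minus strand for LDHB.
ALDOA: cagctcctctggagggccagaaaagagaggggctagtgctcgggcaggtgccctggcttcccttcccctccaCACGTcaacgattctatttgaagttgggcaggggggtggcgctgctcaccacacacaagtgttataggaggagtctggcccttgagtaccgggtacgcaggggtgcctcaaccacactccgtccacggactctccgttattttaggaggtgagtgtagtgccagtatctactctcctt
ENO1: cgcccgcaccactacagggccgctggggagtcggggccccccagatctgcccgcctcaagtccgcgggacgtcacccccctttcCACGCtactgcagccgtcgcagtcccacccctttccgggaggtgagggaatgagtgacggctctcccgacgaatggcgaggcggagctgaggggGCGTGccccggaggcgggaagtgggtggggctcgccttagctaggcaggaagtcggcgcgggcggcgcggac
LDHB: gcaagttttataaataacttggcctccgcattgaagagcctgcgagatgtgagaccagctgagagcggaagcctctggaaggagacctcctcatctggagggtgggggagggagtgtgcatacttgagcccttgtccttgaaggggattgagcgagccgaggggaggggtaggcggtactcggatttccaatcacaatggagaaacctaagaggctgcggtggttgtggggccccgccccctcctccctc
The ALDOA window held 1 ACGTG, the ENO1 window held 2 GCGTG, and in the LDHB window neither string was found. Of 35116 promoter windows of the same length, 18.5% held ACGTG and 32.2% held GCGTG. All 10 listed genes matched the table, with 14 windows in all. Among windows of measured members that are not printed, those of GPI and GAPDH and the other ALDOA windows held ACGTG. The PGAM1 and PKM windows held neither string. Of the TPI1 windows, 1 held both strings and the other neither. A match is a run of letters and not a measured binding site.

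Among the enzymes of the sugar phosphates, GPI, which converts glucose 6-phosphate to fructose 6-phosphate, had values of 10.79, 11.00 and 10.86 on GFP control arrays 1, 2 and 3 and 10.79, 10.83 and 11.03 in DN-TRF2 cells in the same order. The groups overlapped fully, and the difference was -0.0016 ± 0.13 (SE, log2, n = 3 arrays per group), with a 95% interval from -0.30 to 0.29.

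ALDOA encodes the aldolase that splits fructose 1,6-bisphosphate. Averaged over its 6 spots it lay at 11.78, 11.39 and 11.52 in control cells and at 11.60, 11.52 and 11.56 in DN-TRF2 cells. The DN-TRF2 values lay inside the control range, with an SD of 0.043 against 0.20, and the difference was -0.0024 ± 0.14 (95% interval -0.31 to 0.31). The smaller DN-TRF2 spread was not particular to ALDOA. The control SD was the larger for 6 of 8 glycolysis genes and for 4903 of all 6255 genes. Its median over all genes was 0.22, against 0.12 in DN-TRF2. The 6 spots were split, 4 lower and 2 higher, from -0.13 ± 0.28 at spot 8502 to 0.14 ± 0.15 at spot 7403. Spot 8502 was the most variable of them: its intensities were 596, 232 and 605 in control cells and 383, 375 and 532 in DN-TRF2 cells, so that GFP control replicate 2 stood low.

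TPI1 encodes triose phosphate isomerase, which interconverts the triose phosphates that the split yields. Its mean over 5 spots was 10.54, 10.30 and 10.66 in control cells and 10.53, 10.22 and 10.45 in DN-TRF2 cells, a difference of -0.10 ± 0.15. Spot 8045 had intensities of 1984, 1409 and 3138 in control cells and 1675, 1291 and 1779.8 in DN-TRF2 cells. The DN-TRF2 array was the lower at each replicate number, with differences of -0.25, -0.13 and -0.77 (normalized log2), yet the groups overlapped. Both arrays numbered 2 were low. The difference at this spot was -0.38 ± 0.24, and at the other 4 TPI1 spots it lay between -0.10 and 0.073.

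GAPDH, which oxidizes glyceraldehyde 3-phosphate and begins the energy-yielding phase, had 4 spots. Averaged over them it lay at 11.70, 10.86 and 11.66 in control cells and 11.59, 10.93 and 11.38 in DN-TRF2 cells. The replicate 2 array was low in both groups, and the arrays numbered 1 and 3 were high in both. The difference between groups was -0.11 ± 0.25, with a 95% interval from -0.68 to 0.46, which is the widest among the 8 genes. Spot 1562 was lower in DN-TRF2 at each replicate number, with intensities of 3818, 2028 and 4010.3 in control cells and 2776, 1824 and 3034 in DN-TRF2 cells, and a difference of -0.28 ± 0.27. The other 3 spots differed by 0.0057 (spot 2635), 0.026 (spot 4302) and -0.18 (spot 5118).

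PGAM1 encodes the phosphoglycerate mutase of most tissues, and its 2 spots disagreed in sign. Spot 521 had intensities of 468, 335 and 511 in control cells and 349.5, 282 and 381 in DN-TRF2 cells. After normalization the DN-TRF2 array was lower at each replicate number, with differences of -0.49, -0.41 and -0.31, and the mean difference was -0.40 ± 0.18 (limma adjusted p = 0.999, or 0.753 with the replicate block). Spot 4096 had intensities of 2798, 2829.7 and 3218 in control cells and 2859.7, 3091 and 3466 in DN-TRF2 cells. After normalization all 3 DN-TRF2 values, 11.66, 11.64 and 11.71, lay above all 3 control values, 11.57, 11.48 and 11.48, a difference of 0.16 ± 0.13 (limma adjusted p = 0.999). This was the 1 spot without overlap. With the spots averaged, PGAM1 differed by -0.12 ± 0.14.

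ENO1, the enolase that forms phosphoenolpyruvate, differed most of the 8 genes, and each of its 4 spots had a lower mean. Its mean was 10.68, 9.96 and 10.29 in control cells and 10.35, 9.90 and 10.10 in DN-TRF2 cells. At each replicate number the DN-TRF2 array was the lower, with differences of -0.33, -0.063 and -0.19, but the groups overlapped. Both arrays numbered 2 were low, and DN-TRF2 replicate 1 lay above GFP control replicate 3. The difference was -0.19 ± 0.20 (95% interval -0.65 to 0.26). By spot it was -0.24 at 2232, -0.12 at 2829, -0.13 at 5260 and -0.29 at 9423. Within an array, ENO1 minus the mean of the other 7 genes was lower in DN-TRF2 at each replicate number, with differences of -0.21, -0.088 and -0.12 and a mean of -0.14. The exact two-sided permutation test over the 20 splits of the arrays, which takes no account of the pairs, gave p = 0.50. Its smallest possible p is 0.10, so it could not pass 0.05, and ENO1 was chosen for it with earlier results known, so the values are a description. The planned comparison of LDHA with LDHB could not be made without an LDHA spot.

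PKM encodes the pyruvate kinase that closes the chain. Its mean over 4 spots was 10.77, 10.18 and 10.70 in control cells and 10.58, 10.44 and 10.58 in DN-TRF2 cells, and the difference was -0.022 ± 0.17. At replicate numbers 1 and 3 the DN-TRF2 array was lower, with differences of -0.19 and -0.13, while at number 2 it was higher by 0.25. At spots 1840 and 8415 the number 2 difference reached 0.71 and 0.67, with GFP control replicate 2 at intensities of 1652 and 1363, the lowest of the 6 arrays at each of these spots. The mean differences were 0.13 ± 0.21 at spot 1840, 0.058 ± 0.25 at spot 8415, -0.20 ± 0.19 at spot 482 and -0.068 ± 0.16 at spot 2568.

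LDHB, the lactate dehydrogenase subunit typical of oxidative tissues, lay at 10.60, 10.64 and 10.65 in control cells and at 10.50, 10.75 and 10.56 in DN-TRF2 cells. The control values lay inside the DN-TRF2 range, and the difference was -0.025 ± 0.12. Its 2 spots differed by 0.062 (spot 3448) and -0.11 (spot 8706).

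**Figure D2:**
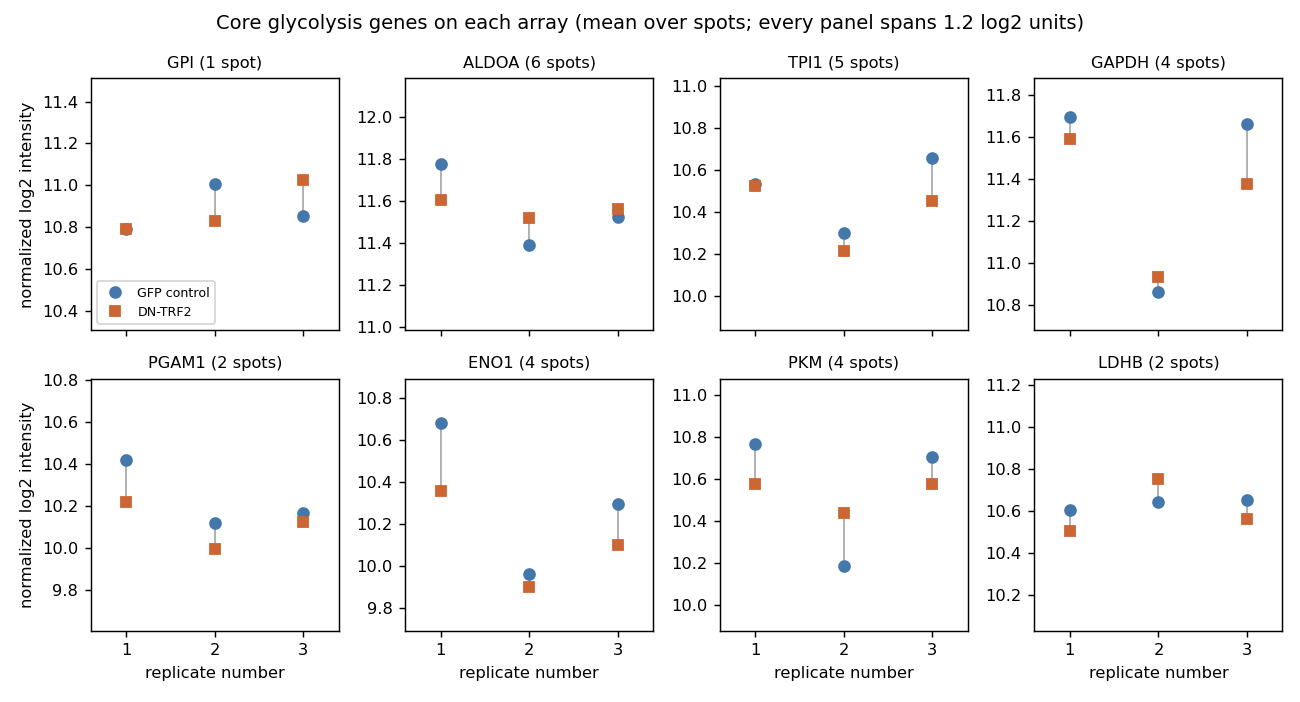
Normalized log2 intensity of each measured gene, averaged over its spots, on the 3 GFP control arrays (circles) and the 3 DN-TRF2 arrays (squares), with a grey line joining arrays of the same replicate number; every panel spans 1.2 log2 units. GAPDH, ENO1 and TPI1 are low on both arrays numbered 2, with GAPDH at 10.86 and 10.93 against 11.38 to 11.70 on the other arrays, while LDHB and GPI are not.

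Replicate number 2 was low for several of these genes. Averaged over the groups, replicate number 2 differed from the mean of numbers 1 and 3 by -0.68 for GAPDH, -0.43 for ENO1, -0.34 for PKM and -0.29 for TPI1 (log2), so that the GAPDH level at number 2 was 62.3% of that at the others on the offset scale. The corresponding values were -0.17 for PGAM1, -0.16 for ALDOA, 0.050 for GPI and 0.12 for LDHB. Over the 28 spots the median was -0.27, against 0.013 over all spots, and over the 8 genes -0.23 against 0.016. This pattern was noticed in the values and is given as a description.

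Both groups showed it. Replicate 2 was the lowest control array at 20 of 28 spots (36.4% of all spots) and the lowest DN-TRF2 array at 20 of 28 (32.5%), and it was lowest in both groups at 17 of 28 spots, against 15.6% of all spots. By gene it was lowest in both groups for 6 of 8, against 15.3% of all genes. GAPDH showed it at all 4 of its spots. Of 140 genes with at least 4 spots, 2.14% did so at every spot, and these 3 genes were GAPDH, the ribosomal protein gene RPS14 and the alpha-tubulin gene TUBA1C. Replicate 1 was the lowest in both groups at 2 of 28 spots, against 19.6% of all spots, and replicate 3 at 2, against 12.5%. Spots of 1 gene share its RNA, so the 28 spots are not 28 separate observations.

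Any difference among the 3 replicate numbers, not that of number 2 alone, was tested spot by spot with limma's moderated F, in the fit that also holds the group and after the pattern had been seen. No spot of the array passed after adjustment (0 of 28 members, 0% of all spots, smallest adjusted p 0.177 over all spots and 0.225 among the members, at ENO1 spot 2829). At an unadjusted p under 0.05 there were 11 of 28 members, against 13.8% of all spots. All 4 GAPDH spots and 3 of the 4 ENO1 spots were among the 11. The range over replicate numbers was larger than the size of the group difference at 27 of 28 spots, against 82.7% of all spots. The exception was PGAM1 spot 4096. By gene it was larger for 8 of 8, against 82.8% of all genes, so most of the array showed the same. The range takes the extremes of means over fewer arrays than the group difference uses. It therefore tends to be the larger even without any effect, and these counts do not compare the 2 sources of variation.

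**Figure D3:**
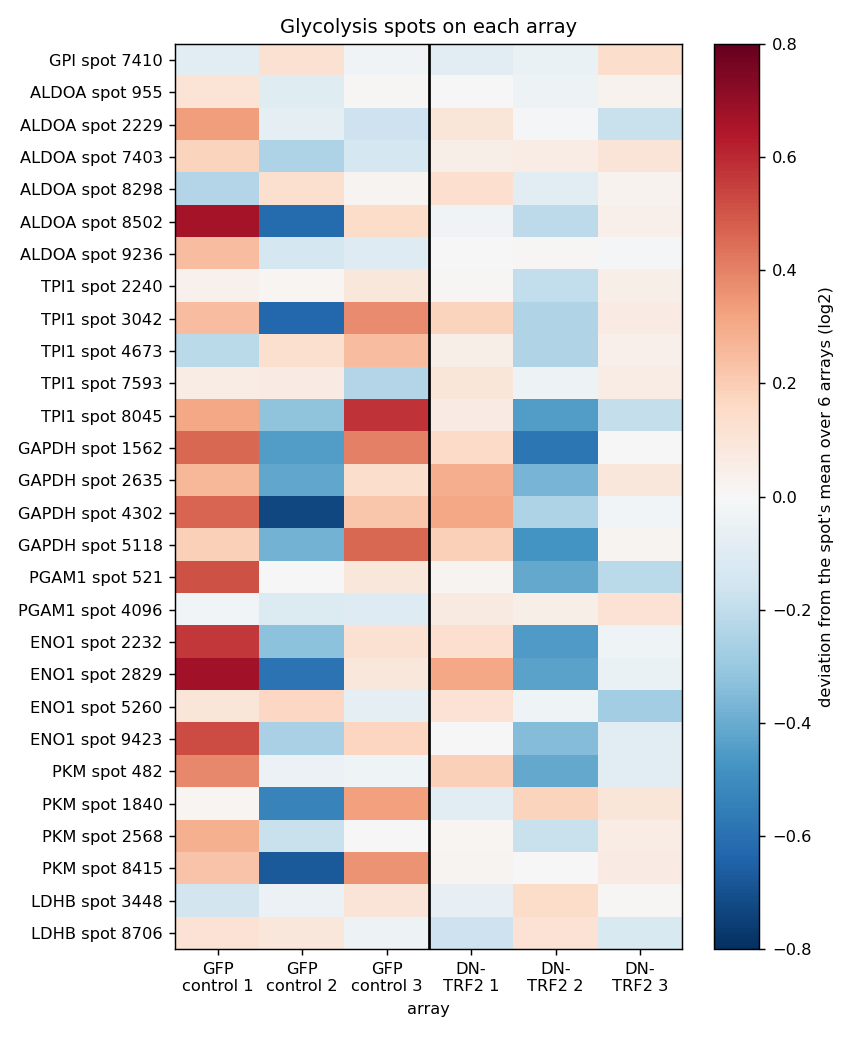
Deviation of each glycolysis spot (rows) from its own mean over the 6 arrays (columns), in log2 units from blue (lower) to red (higher), with the groups divided by the black line. GFP control replicate 2 and DN-TRF2 replicate 2 are blue at all 4 GAPDH spots, and the mean deviation of GFP control replicate 1 over the 28 spots is 0.22.

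Spots of 1 gene did not all show the low replicate 2. It was lowest in both groups at 3 of 4 ENO1 spots, 3 of 4 PKM spots, 3 of 5 TPI1 spots, 2 of 6 ALDOA spots and 2 of 2 PGAM1 spots, and at 0 of the LDHB and GPI spots. At ENO1 spot 5260 replicate number 2 differed from the other numbers by 0.10, against -0.77 at ENO1 spot 2829. The mean signal of these spots was 12.04 and 9.08 (log2). Among the 5 glycolysis spots with a mean signal above 12, replicate 2 was lowest in both groups at 1 (10.7% of all such spots). Among the 23 spots at or under 12 it was lowest in both at 16 (15.9% of all such spots). The spots above 12 were ALDOA spots 955, 7403 and 8298, TPI1 spot 7593 and ENO1 spot 5260, so brightness goes partly with gene. Why bright and dim spots differed was not tested.

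The mean over the members shows the same order of arrays. Relative to each gene's mean over the 6 arrays, the 8 genes together lay at 0.18, -0.17 and 0.090 on GFP control arrays 1, 2 and 3 and at 0.046, -0.15 and -0.0022 on DN-TRF2 arrays 1, 2 and 3, while the mean over all genes stayed between -0.0085 and 0.0061. Both replicate 2 arrays are the low ones and GFP control replicate 1 is the highest, and the groups overlap. Within replicate number 1 all 8 genes were lower in DN-TRF2 (median -0.14, with 52.0% of all genes lower), within number 3 it was 6 of 8 (median -0.11, 49.1%), and within number 2 it was 4 of 8 (median 0.0055, 53.7%). Without GFP control replicate 2 the median over the genes was -0.19 and 7 of 8 were lower, with GAPDH at -0.38 and ENO1 at -0.36. Without GFP control replicate 1 the median was -0.023 and 5 of 8 were lower. Without DN-TRF2 replicate 2 it was 0.0047 and 4 of 8 were lower. Leaving out GFP control replicate 3 gave a median of -0.019, and leaving out DN-TRF2 array 1 or 3 gave -0.11 or -0.10. No member passed in any of these fits.

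**Figure D4:**
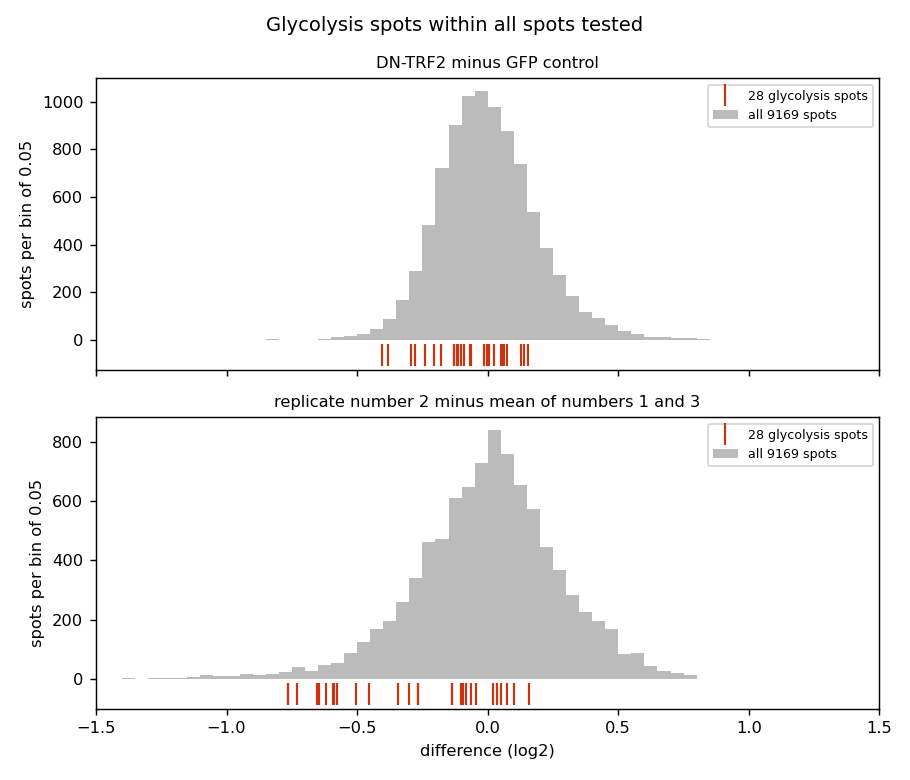
Histograms over all 9169 spots (grey, bins of 0.05) of the difference between DN-TRF2 and GFP control (top) and of replicate number 2 minus the mean of numbers 1 and 3 (bottom), in log2 units, with the 28 glycolysis spots as red ticks. The ticks lie from -0.40 to 0.16 in the top panel, and reach -0.77 in the bottom panel, where 5% of all spots lie under -0.46.

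With the replicate number as a block, the standard errors of the variable genes shrank, for GAPDH from 0.25 to 0.13 and for ENO1 from 0.20 to 0.13, and still no member passed (limma adjusted p with the block 0.931 for GAPDH and 0.898 for ENO1). In this fit 2 of 28 spots had an unadjusted p under 0.05 in the lower direction, TPI1 spot 8045 and PGAM1 spot 521, against 2.08% of all spots, and 0 in the higher direction, against 3.66%. Their adjusted p was 0.843 and 0.753.

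Other genes of the pathway gave no call either. Of 21 further glycolysis genes 11 were measured, 6 with a lower and 5 with a higher mean, with 0 passing limma's adjusted p and 0 with an unadjusted p under 0.05, and a median difference of -0.012. ADPGK, an ADP-dependent glucokinase, differed by 0.50 ± 0.24, the brain aldolase gene ALDOC by -0.23 ± 0.21 and the platelet-type phosphofructokinase gene PFKP by -0.15 ± 0.17. In this list, replicate 2 was the lowest array in both groups for 5 of 11 genes, against 15.3% of all genes, and the median difference of replicate 2 from the other numbers was -0.25. HK1, the hexokinase that feeds the chain, differed by -0.39 at replicate number 2 from the other numbers, the neuronal enolase gene ENO2 by -0.32, the muscle-type phosphofructokinase gene PFKM by -0.25 and the muscle enolase gene ENO3 by 0.18. Clones of such related genes can hybridize with each other's RNA. Of the transport and regulator list only BSG, the chaperone of lactate transporters, had a spot, and it differed by -0.0080 ± 0.19.

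The branches around the chain showed no common direction between the groups. In the pentose phosphate and side branch list, 8 of 14 measured genes had a lower mean, 0 passed limma's adjusted p and 0 had an unadjusted p under 0.05. PGM1, which links glycogen to glucose 6-phosphate, differed by -0.22 ± 0.14, the serine synthesis gene PSAT1 by -0.23 ± 0.15 and the pentose phosphate epimerase gene RPE by -0.17 ± 0.13. Of 9 measured genes for pyruvate entry to mitochondria 4 had a lower mean, and PDHA1, a subunit of pyruvate dehydrogenase, differed by -0.26 ± 0.14, its inhibitory kinase gene PDK2 by -0.20 ± 0.14 and the mitochondrial pyruvate carrier gene MPC1 by 0.18 ± 0.14. Of 16 measured citrate cycle genes 8 had a lower mean, and 5 were lower at all 3 replicate numbers, against 15.2% of all genes. MDH2, the mitochondrial malate dehydrogenase, differed by -0.47 ± 0.19, citrate synthase (CS) by -0.25 ± 0.13 and IDH1 by -0.36 ± 0.18. MDH2 was the 1 gene of the list with an unadjusted limma p under 0.05, where 67 of all 6255 genes were lower. In these 3 lists the groups did not overlap for PSAT1, PDHA1, MDH2, CS and SDHD, each lower in DN-TRF2 (4.25% of all genes), and for PGM2, higher by 0.17 (4.70%). SDHD, at -0.10, and PGM2 were named after their values were seen. The limma adjusted p was 1.00 for each of these genes.

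Among hypoxia-inducible factor genes and targets outside the members, 13 of 17 had a lower mean in DN-TRF2, against 52.0% of all genes. The median difference of this list was -0.10, against -0.0067 over all genes. HIF1A, the oxygen-regulated subunit itself, lay at a mean of 8.78 ± 0.14 in control and 8.51 ± 0.010 in DN-TRF2 cells (SD, n = 3 arrays each), a difference of -0.28 ± 0.13 (SE), with no overlap. EGLN3, a prolyl hydroxylase that marks the factor for degradation, differed by -0.28 ± 0.13, also with no overlap, and the peptide hormone gene ADM by -0.21 ± 0.17. Over all genes, 4.25% were lower without overlap. None of the 17 passed (limma adjusted p 1.00), and 0 had an unadjusted p under 0.05. Replicate 2 was the lowest in both groups for 0 of these 17 genes, against 15.3% of all genes. In the MYC group, MYCN differed by -0.16 ± 0.14, MAX by -0.083 ± 0.12 and MYC by 0.012 ± 0.12.

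Markers of other cell states were set beside the glycolysis genes, and the limma adjusted p was 1.00 for each marker. The sympathoadrenal genes had 4 of 8 lower, with list levels of 9.95 to 10.01 in control and 9.96 to 10.02 in DN-TRF2 cells. The neuronal gene STMN2 differed by 0.33 ± 0.16, GATA3 by 0.21 ± 0.12, GATA2 by 0.082 and DDC by 0.026. The 4 lower genes were CHGB (-0.18), MYCN (-0.16), CHGA (-0.14) and DBH (-0.040). The substrate-adherent and mesenchymal list had 8 of 10 higher, at list levels of 9.23 to 9.48 against 9.50 to 9.63. In it 3 of 10 genes were higher with an unadjusted limma p under 0.05, against 156 of all 6255 genes. They were TIMP1 at 0.68 ± 0.14, S100A6 at 0.59 ± 0.13 and CAV2 at 0.48 ± 0.15. VIM (-0.20) and FN1 (-0.029), named after their values were seen, had the lower means.

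Pancreas genes had 2 of 4 higher, at list levels of 7.67 to 7.88 in control and 8.01 to 8.18 in DN-TRF2 cells. The elastase gene CELA3B differed by 0.98 ± 0.19, the lipase gene PNLIP by 0.34 ± 0.13 and CPA1 by -0.12 ± 0.15. CELA3B and PNLIP had an unadjusted limma p under 0.05, where 156 of all 6255 genes were higher. Blood and immune genes (2 of 4 higher) ran at 8.76 to 8.86 against 8.67 to 9.07, with HBB at 0.19, CD14 at 0.18 and LYZ at -0.15. Liver and epithelial genes (5 of 8 higher) ran at 8.54 to 8.77 against 8.69 to 8.83, with EPCAM at 0.34, CDH1 at 0.20 and KRT8 at 0.17. The lower genes of this list, named after their values were seen, were KRT19 (-0.053), KRT18 (-0.030) and ALB (-0.015). The part of these markers in the glycolysis values was not tested.

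By likeness of pattern, the genes outside the members closest to the mean of the 8 genes over the 6 arrays were RNF40, TRAIP and TNNT1, with Pearson correlations of 0.998, 0.991 and 0.991. This is a description over few arrays, and 77 of the 6247 other genes reached 0.95.

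**Figure D5:**
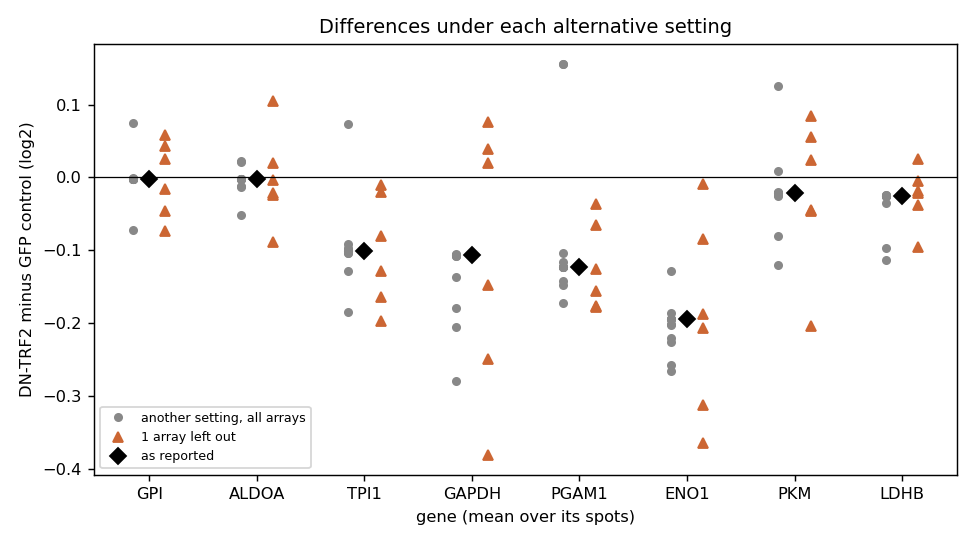
Difference between DN-TRF2 and GFP control (log2) of each measured gene as reported (diamonds), under another processing setting with all arrays (grey circles) and with 1 array left out (triangles). ENO1 stays under 0 at every point, from -0.36 to -0.0097 with 1 array left out, while GAPDH runs from -0.38 to 0.076.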

How the data were processed

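Intensities of 6 one-channel arrays of 9600 cDNA spots were taken as the authors deposited them, on a linear scale. Per the labels' protocols a radioactive label went into about 5 µg of total RNA per array. The sources used here do not give the image software, background treatment or scaling. The 384 blank positions and 47 further spots at the stand-in value of 10 on all arrays were left out. The remaining 9169 spots were set to log2 of intensity plus 50, quantile-normalized and tested with limma 3.58.1 under R 4.3.3 (two-sided), and p-values were adjusted by Benjamini-Hochberg over all of them, with a threshold of 0.05. Fold changes on this scale understate changes of dim spots. Gene values average a gene's spots (8451 spots with 1 symbol, 6255 genes). The fit was also run on simulated data, drawn with independent noise and the same spread in both groups. The real arrays differed in both respects, so that run does not tell what size of difference could be found here.

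Arrays with the same number deviated together from their group means (correlations of 0.390, 0.296 and 0.246 across spots). The numbers were therefore read as pairs, and a fit with the replicate block was run beside the reported one. The arrays limit precision by their number. The reported p-values weigh the group difference against the variation between arrays within a group. That variation includes what same-numbered arrays share, which the fit with the replicate block takes out. Members, lists and tests were chosen with earlier results of these data known. All measured members are named, with up to 3 genes of smallest p per related list and the 3 genes most alike in pattern. All measured sympathoadrenal markers are named, as the defining ones. HK1, ENO2, PFKM and ENO3 and the F test over replicate numbers were chosen after values were seen.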

Additional observations from a re-analysis of the deposited data

How the results depend on the processing

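No alternative called a member. Over the whole array 0 spots passed in every fit but that with an offset of 1, where 1 spot passed (BOP1, no member, named after its value was seen), and 313 spots had an unadjusted p under 0.05 by limma in the reported fit (527 with the replicate block, 141 to 792 with 1 array left out). With the replicate block the median over the 8 genes stayed -0.063, all 8 were lower, and no call changed. That median was -0.11 with median centring, -0.12 with array weights, -0.024 without the spots under the median signal, -0.0073 with the brightest spot per gene, and -0.19 to 0.0047 with 1 array left out.

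The 8 lower genes became 6 without the spots under the median signal and 5 with the brightest spot per gene. They became 4 to 8 with 1 array left out (4 without DN-TRF2 replicate 2, 5 without GFP control replicate 1). With the median over spots 2 of the 8 turned, and with array weights 1. Signs turned as follows. With an offset of 100, TPI1 spot 3042 came to -0.0020. With median centring, GAPDH spots 2635 and 4302 came to -0.095 and -0.063 and PKM spot 8415 to -0.031. Without the spots under the median signal, ALDOA came to 0.023 and PGAM1 to 0.16. With array weights, GPI came to 0.074 (also at spot 7410, 0.074), ALDOA spot 9236 to 0.014, PKM spots 1840 and 8415 to -0.071 and -0.17, GAPDH spots 2635 and 4302 to -0.11 and -0.20, and TPI1 spot 3042 to -0.23. With the brightest spot, TPI1, PGAM1 and PKM came to 0.073, 0.16 and 0.13. With the median over spots, ALDOA and PKM came to 0.021 and 0.0089. The cause was not tested.

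With 1 array left out, genes that turned ran from -0.089 to 0.10 (ALDOA), -0.38 to 0.076 (GAPDH), -0.20 to 0.084 (PKM), -0.074 to 0.058 (GPI and its spot 7410) and -0.096 to 0.025 (LDHB). Spots that turned ran, for ALDOA, from -0.066 to 0.038 (955), -0.16 to 0.087 (2229), -0.048 to 0.13 (8298), -0.46 to 0.17 (8502) and -0.072 to 0.12 (9236). For GAPDH they ran from -0.20 to 0.19 (2635), -0.33 to 0.26 (4302) and -0.42 to 0.015 (5118), for PKM from -0.11 to 0.33 (1840), -0.17 to 0.056 (2568) and -0.26 to 0.25 (8415), for TPI1 from -0.30 to 0.19 (3042) and -0.028 to 0.12 (7593), and for ENO1 from -0.43 to 0.19 (2829).

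Replicate 2 was lowest in both groups at 17 of 28 spots under each offset, with the floor, with blanks kept and without the dimmest spots, and at 14 of 28 with median centring, against 14.2% of all spots, and at 14 of the 24 left without the spots under the median signal, against 16.2%. These settings were applied to that count after the data had been seen.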

Other observations

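In the pentose phosphate list, replicate number 2 went both ways. RPIA, the ribose phosphate isomerase gene, and TKT, the transketolase gene, lay higher at number 2 than at the other numbers, by 0.52 and 0.56 (log2, averaged over both groups), and the glycogen synthase gene GYS1 by 0.35. PGD, the phosphogluconate dehydrogenase gene of the oxidative branch, differed by -0.69. The median over the 14 genes was 0.041, against -0.25 for the further glycolysis genes and -0.077 for the citrate cycle list. These genes were named after their values had been seen.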
